A study of Homo sapiens with 14 samples.

Results

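CDK inhibitors and growth-arrest genes are the brakes of the cell cycle. The 10 genes followed here by symbol also take in p53 targets that are not themselves brakes, such as MDM2. They are CDKN1A, CDKN1B, CDKN2B, MDM2, BTG1, BTG2, GADD45A, GADD45B, GDF15 and PLK2. Of these, 9 had a probe set that the array annotation gives to 1 symbol, and all 9 lay above the filter on dim genes, among 11050 genes kept of 18417 measured. BTG2 had no such probe set and was not analysed here. The samples were 14 GeneChip Human Gene 1.0 ST arrays, 1 array for each condition, of a gastric cancer line that the labels call MKN28 and the study calls MKN74, in 3 models of epithelial-mesenchymal transition (EMT). The parental line was kept in 1% oxygen (hypoxia) or given 10 ng/mL TGF-β for 1 and 2 days, with and without knockdown of ANGPTL4, and was left untreated for 2 days. The derivative MKN28Snai1ER carries a Snai1 transgene fused to an oestrogen receptor domain, which 4-hydroxytamoxifen (4-OHT) switches on. It was given 20 ng/mL 4-OHT for 2 and 4 days, with and without knockdown, and was left untreated for 4 days. Its knockdown cells carried a hairpin RNA against ANGPTL4, whereas the labels do not say how ANGPTL4 was lowered in the parental line. Hypoxia and TGF-β shared their untreated array, neither untreated array had a knockdown partner, and no condition was repeated, so a response to a stimulus has no replicate check.

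Cyclin-dependent kinases (CDKs) drive a cell from one phase of its cycle to the next. The CDKN1 proteins p21 (CDKN1A) and p27 (CDKN1B) bind and block CDK2 complexes, while the CDKN2 protein p15 (CDKN2B) blocks CDK4 and CDK6 and is a classical TGF-β target in epithelial cells. The transcription factor p53 switches on CDKN1A, MDM2, GDF15, BTG2, GADD45A and PLK2 after damage, and MDM2 in turn marks p53 for destruction. Several of these genes also answer to nutrient and endoplasmic reticulum stress, through the factors ATF4 and DDIT3.

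The values are log2 probe-set intensities, so a difference of 1 is a doubling. The 14 arrays had deposited medians of 5.997 to 6.162, except the TGF-β arrays without knockdown, at 5.23 on day 1 and 5.19 on day 2. All 14 were therefore brought to 1 distribution by quantile normalization, and TGF-β results are also given as deposited. The array of hypoxia with knockdown on day 1 stood farthest from the mean of the others (SD of 0.719 over genes, against 0.272 to 0.564 for the rest). All 5 epithelial markers were above the filter, with mean levels of 10.7 to 11.8 over the arrays, while COL1A1 was the only fibroblast marker of 5 above it, and none of 3 leukocyte or 3 endothelial markers was. The 5 arrays of the Snai1ER line had SNAI1 levels of 8.74 to 9.78, and the 9 of the parental line 5.48 to 6.07. The 8.74 was that of 4-OHT with knockdown on day 4, and the other Snai1ER arrays read 9.52 to 9.78. No array had ANGPTL4 above 5.39, and the filter lay at 5.90, so its probe set does not check the knockdown. Fewer cells of a type and less RNA per cell cannot be told apart in these bulk samples.

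The members differed widely in how much they moved over the 14 arrays. GDF15, a secreted stress-induced member of the TGF-β superfamily, had an SD of 1.08 log2 units, larger than that of 98.7% of the genes kept, and the anti-proliferative BTG1 had 0.74, larger than that of 94.6%. CDKN1A (0.54), GADD45A (0.47), GADD45B (0.45), CDKN1B (0.39) and MDM2 (0.37) lay above the median gene (0.33), and the stress kinase PLK2 (0.31) just under it. CDKN2B lay at the other end, with an SD of 0.14 that only 3.19% of genes fell below. Its 14 values ran from 6.67 to 7.09. GDF15 ran from 6.38 on the untreated Snai1ER array to 9.46 on the 4-OHT array of day 4, and its next highest levels were those of the hypoxia arrays without knockdown.

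**Figure D1:**
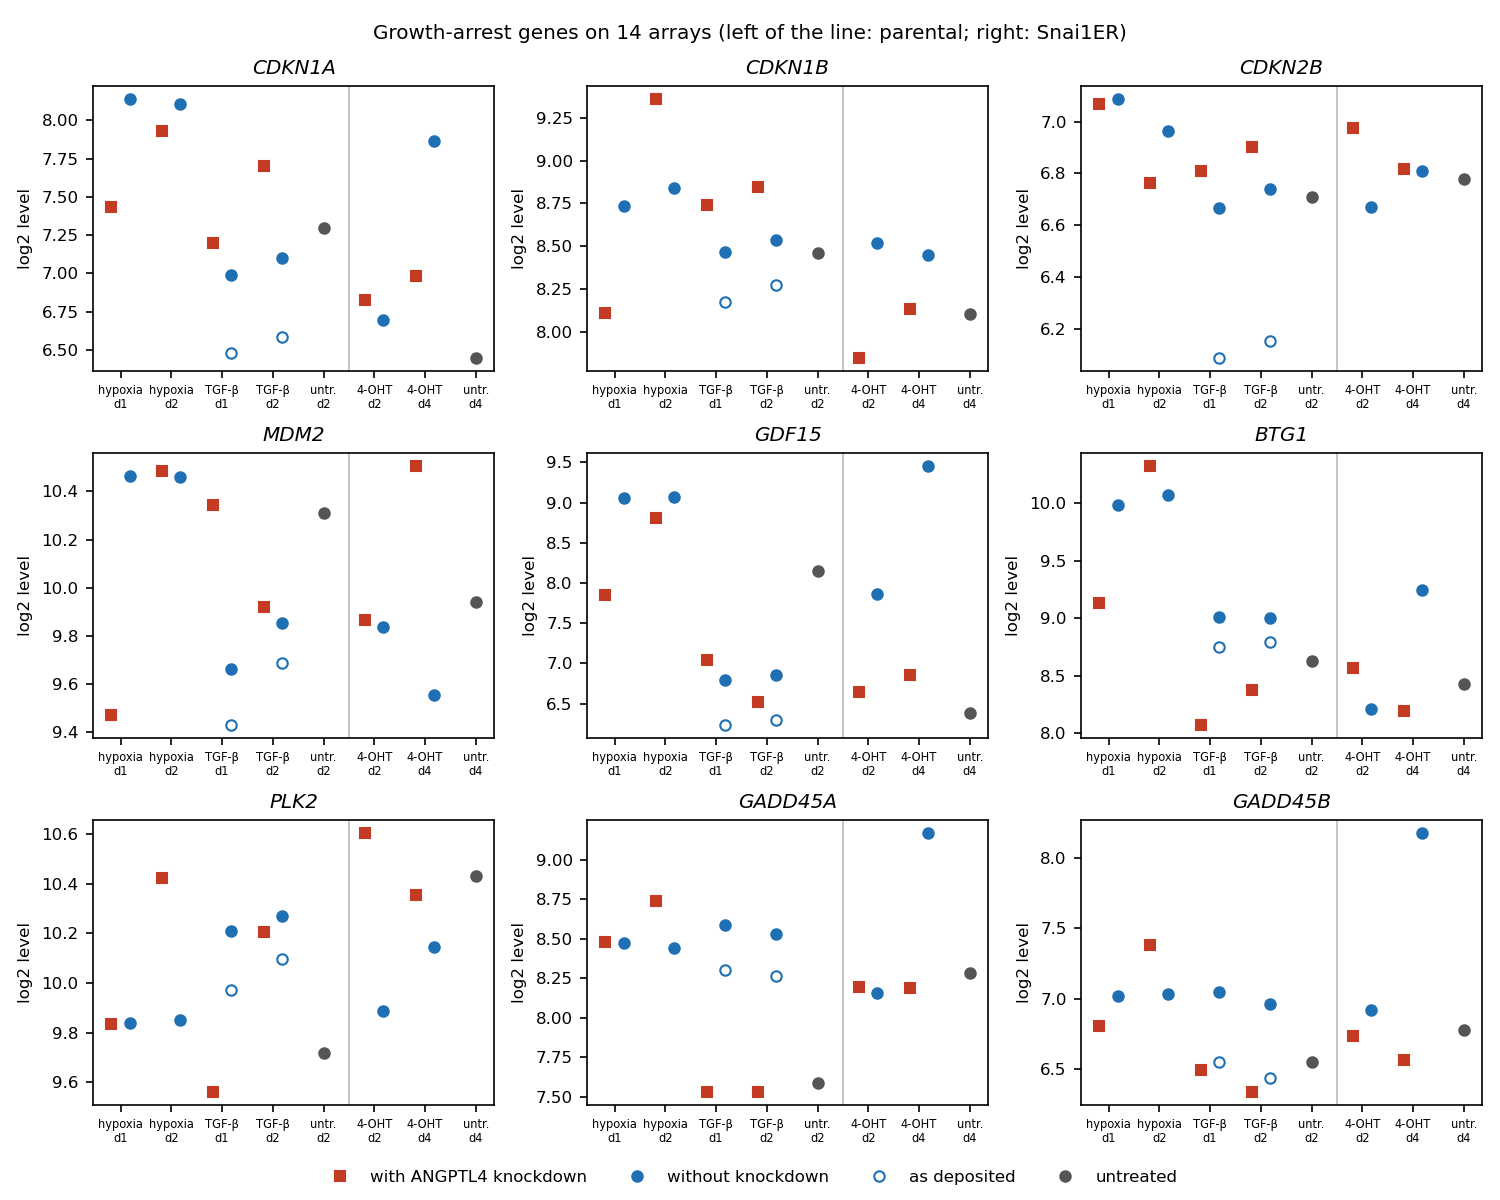
Log2 level (vertical axis, quantile-normalized) of 9 genes on 14 arrays, 1 point an array, by stimulus and day (horizontal axis), with open circles for the TGF-β values as deposited. GDF15 reaches 9.46 on the 4-OHT array of day 4, and CDKN2B stays between 6.67 and 7.09 throughout.

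The promoters of BTG1, GDF15 and CDKN1A are shown because these genes were higher together in hypoxia, and those of GADD45B and PLK2 for the motifs they hold. The promoter table made from RefSeq (GRCh38.p14) gave 12 windows for 9 of the 10 members, all but GADD45A. Each window holds 250 bases before and 50 after a transcription start, in the direction of transcription. The windows were searched on both strands for the AP-1 site TGAGTCA, the ATF4 core TGATGCAA, the hypoxia core ACGTG, the SMAD box GTCTAGAC, the p53 half-site and the TATA box TATAAA, the last of which was added after the windows had been read. Capitals mark the matches. BTG1 at chr12:92145797-92146096 (minus strand), GDF15 at chr19:18385908-18386207 (plus strand), CDKN1A at chr6:36678464-36678763 (plus strand), GADD45B at chr19:2475877-2476176 (plus strand) and PLK2 at chr5:58460037-58460336 (minus strand) read as follows.
BTG1: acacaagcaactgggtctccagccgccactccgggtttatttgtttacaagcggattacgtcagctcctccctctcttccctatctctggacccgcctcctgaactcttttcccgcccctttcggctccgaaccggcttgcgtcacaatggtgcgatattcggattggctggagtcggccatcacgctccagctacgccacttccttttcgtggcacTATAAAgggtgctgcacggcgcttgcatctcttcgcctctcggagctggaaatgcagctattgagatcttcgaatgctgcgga
GDF15: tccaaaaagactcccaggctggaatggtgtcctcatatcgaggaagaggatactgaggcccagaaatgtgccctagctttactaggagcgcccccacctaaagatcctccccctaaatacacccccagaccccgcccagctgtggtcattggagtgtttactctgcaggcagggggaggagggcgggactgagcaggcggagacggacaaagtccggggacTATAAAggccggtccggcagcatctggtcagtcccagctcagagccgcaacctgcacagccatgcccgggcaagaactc
CDKN1A: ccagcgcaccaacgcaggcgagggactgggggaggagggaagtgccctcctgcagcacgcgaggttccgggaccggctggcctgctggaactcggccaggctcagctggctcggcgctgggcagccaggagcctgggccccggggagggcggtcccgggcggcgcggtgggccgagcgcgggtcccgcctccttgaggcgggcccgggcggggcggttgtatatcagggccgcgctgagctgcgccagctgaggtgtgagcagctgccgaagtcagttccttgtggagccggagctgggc
GADD45B: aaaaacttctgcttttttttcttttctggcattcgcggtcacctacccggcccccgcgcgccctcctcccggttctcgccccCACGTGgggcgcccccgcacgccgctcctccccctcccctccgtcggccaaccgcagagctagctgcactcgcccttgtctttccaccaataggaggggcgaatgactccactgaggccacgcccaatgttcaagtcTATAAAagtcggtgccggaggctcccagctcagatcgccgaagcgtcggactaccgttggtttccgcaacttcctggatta
PLK2: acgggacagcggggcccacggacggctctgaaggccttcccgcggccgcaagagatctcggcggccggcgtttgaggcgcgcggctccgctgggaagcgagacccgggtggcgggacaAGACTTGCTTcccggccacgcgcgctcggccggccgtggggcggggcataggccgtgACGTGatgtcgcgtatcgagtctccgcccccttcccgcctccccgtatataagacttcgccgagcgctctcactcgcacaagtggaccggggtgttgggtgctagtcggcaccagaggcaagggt

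BTG1, GDF15 and GADD45B, which belong to 3 separate families, each held a TATAAA that began at -33, -29 and -31 from the start, in that order, against 11.5% of all 35116 promoter windows with that motif anywhere. The TATA box was added after these windows had been read, so that share does not test it. GADD45B held the palindrome of 2 overlapping hypoxia cores, and PLK2 held 1 hypoxia core and 1 p53 half-site, motifs found in 21.4% and 6.63% of all windows. The 2 downstream windows of MDM2, not printed, held the same AP-1 site and hypoxia core. They held no p53 half-site of the exact pattern searched, which misses a site with any base off it. The AP-1 site occurred in 4.95% of all windows, the ATF4 core in 0.866% and the SMAD box in 0.202%, and no member window held either of the last 2. The windows of CDKN1A, CDKN1B, CDKN2B and BTG2 held none of the 6 motifs. That of CDKN1A was 74.3% G and C, against a median of 58.7% over all windows. A match is a string of letters in these 300 bases and nothing more.

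CDKN1A, GDF15, BTG1 and GADD45A were higher in hypoxia. By the size rule used for stimuli, a difference of 1.5-fold or more (0.58 in log2) with 1 sign on both days, 4 of 9 members were higher and 0 were lower than in untreated parental cells, against 3.02% of all genes kept that were higher and 1.95% that were lower. The median of the members' mean differences was 0.48, against -0.03 over all genes. Both time points were set against the same untreated array, so they are not independent.

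BTG1, which slows division through its partners in mRNA decay and transcription, read 9.99 on day 1 and 10.07 on day 2 of hypoxia, against 8.63 untreated, a 2.56-fold and a 2.71-fold difference. GDF15 read 9.06 and 9.07 in hypoxia, against 8.15 untreated (1.88-fold and 1.90-fold). Days 1 and 2 differed by 0.08 log2 units or less for both genes. GADD45A, a sensor of DNA damage that binds p21 and PCNA, read 8.47 and 8.44 in hypoxia, against 7.59 untreated, and CDKN1A read 8.14 and 8.11, against 7.30. These 2 differences lay between 1.75-fold and 1.84-fold. GADD45B, the relative of GADD45A best known as a target of NF-κB and TGF-β, lay just outside the rule at 7.02 and 7.04, against 6.55 untreated (1.38-fold and 1.40-fold). CDKN1B (0.27 and 0.38 in log2) and CDKN2B (0.38 and 0.25) had smaller differences. MDM2, the p53 target with the closest link to p53 itself, differed by 0.16 and 0.15, and PLK2 by 0.12 and 0.14.

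Of 21 other p53 targets kept, 2 were higher in hypoxia and 0 lower, against 3.02% of all genes higher and 1.95% lower. The list median was 0.01. The 2 were PMAIP1, which encodes the death protein NOXA (1.33 and 1.76), and the death receptor gene TNFRSF10B (0.66 and 0.64). None of 3 other CDK inhibitors kept (CDKN1C, CDKN2A and CDKN2D) met the rule on hypoxia, nor did any of the 6 relatives of the members kept. Among 14 regulators kept, 3 were higher, led by DDIT3 (1.76 and 1.53) and ATF3 (0.98 and 1.45), and SKP2, which marks p27 for destruction, was lower (-0.94 and -0.59). Of 12 proliferation markers, 6 were lower in hypoxia (5 as deposited) and 0 higher, against the same 1.95% of all genes lower, with a list median of -0.55. The largest differences were those of the replication helicase genes MCM4 (-0.87 and -0.90), MCM5 (-0.91 and -0.79) and MCM6 (-0.73 and -0.92). Of 15 cyclins, CDKs and pocket proteins, 3 were lower and 0 higher, namely CCND1 (-0.95 and -0.79), CCNE2 (-0.65 and -0.95) and RBL1 (-0.63 and -0.86).

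**Figure D2:**
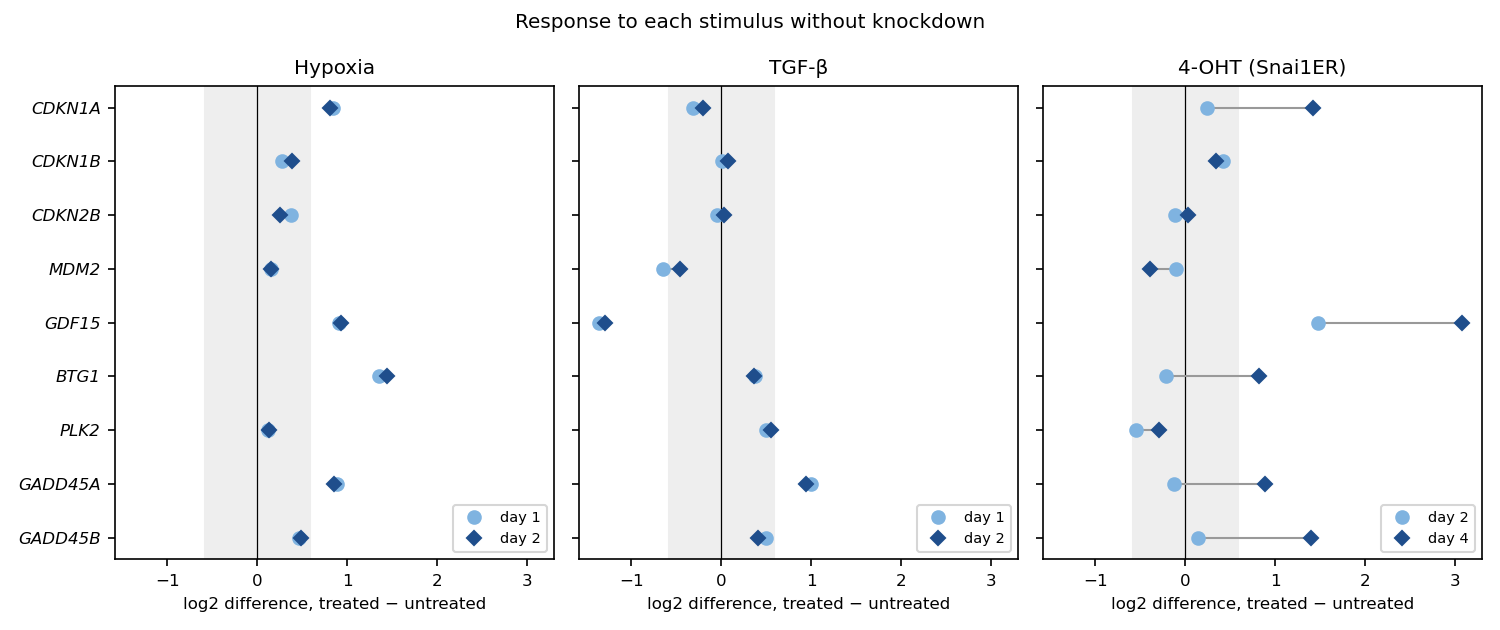
Log2 difference between each stimulated array and its untreated array (horizontal axis) for 9 genes, at the earlier (circle) and later (diamond) time point, with differences under 1.5-fold shaded grey. On hypoxia and TGF-β both points lie close together, whereas on 4-OHT 5 genes lie past 1.5-fold on day 4 and only GDF15 does on day 2.

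On TGF-β the members split. GADD45A was higher and GDF15 lower at both time points, 1 of 9 each, against 2.47% of all genes higher and 3.27% lower. GADD45A read 8.59 on day 1 and 8.53 on day 2 of TGF-β, against 7.59 untreated, which is 1.99-fold and 1.92-fold. GDF15 read 6.79 and 6.86 on TGF-β, against 8.15 untreated, a log2 difference of -1.35 and -1.29. CDKN2B, the CDK inhibitor known as a TGF-β target in epithelial cells, read 6.67 and 6.74, against 6.71 untreated. CDKN1A differed by -0.31 and -0.20, MDM2 by -0.65 and -0.46, PLK2 by 0.49 and 0.55, and GADD45B by 0.50 and 0.41.

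The TGF-β counts and some directions depended on the scale (the median mean difference of all genes was 0.01 on the common scale, -0.46 as deposited and 0.35 with arrays centred on their medians). As deposited, with both TGF-β medians low, 0 members were higher and 4 were lower (CDKN1A, CDKN2B, MDM2 and GDF15), against 0.452% of all genes higher and 32.3% lower. GDF15 was lower on either scale (-1.99 and -1.93 as deposited). GADD45A was higher by 0.60 and 0.57 as deposited, past the rule on day 1 and short of it on day 2. CDKN2B, level on the common scale, differed by -0.72 and -0.66 as deposited, and GADD45B turned sign to -0.10 and -0.21, as did CDKN1B (-0.36 and -0.26). With centred arrays, 4 members were higher (GADD45A, BTG1, PLK2 and GADD45B) and 1, GDF15, lower, against 22.5% of all genes higher and 1.86% lower. MDM2 then differed by -0.06 and 0.23, so its mean direction turned. None of the 21 other p53 targets met the rule on TGF-β on the common scale. MYC, a repressor of CDKN1A and CDKN2B, was higher (0.77 and 0.59), EGR1 was lower (-0.68 and -0.83), and CDK6, a kinase that p15 blocks, was higher (0.82 and 1.03). As deposited these had the same signs, but MYC (0.51 and 0.41) and CDK6 (0.45 and 0.73) no longer met the rule. The keratin gene KRT19 was lower on TGF-β (-1.19 and -1.22) and higher in hypoxia (0.71 and 0.79), and its part in the members' values was not tested.

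In Snai1ER cells, GDF15 was higher on 4-OHT at both time points, and 4 more members on day 4. On day 4 alone, 5 of 9 members were past 1.5-fold, against 10.8% of all genes higher, on an array that stood 0.564 (SD over genes) from the mean of the others. By the rule for both time points 1 of 9 members was higher and 0 lower, against 2.33% of all genes higher and 1.21% lower. GDF15 read 7.86 on day 2 and 9.46 on day 4, against 6.38 untreated, a 2.78-fold and an 8.41-fold difference. On that day CDKN1A read 7.87, against 6.45 untreated (2.67-fold), and GADD45B 8.18, against 6.78 (2.64-fold). GADD45A read 9.17 on day 4, against 8.28 untreated, and BTG1 read 9.24, against 8.42. All 4 had differed by 0.25 log2 units or less on day 2. The day 4 values are those of 1 array, which held the highest level of GDF15, GADD45A and GADD45B among all 14. CDKN1B differed by 0.42 and 0.34, CDKN2B by -0.11 and 0.03, MDM2 by -0.10 and -0.39 and PLK2 by -0.54 and -0.29.

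DDIT3 and ATF3, transcription factors of the stress response, were higher on the same arrays. On 4-OHT, DDIT3 was 1.16 higher on day 2 and 3.77 on day 4, ATF3 0.71 and 2.27, and EGR1 0.87 and 2.21, while the other 11 regulators kept did not meet the rule. Among cyclins, CDKs and pocket proteins, CCND2 (0.83 and 2.34) and RBL2 (0.66 and 0.68) were higher, and none of 12 proliferation markers or 21 other p53 targets met the rule on 4-OHT.

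The 2 lines differed before any stimulus. In untreated Snai1ER cells GDF15 was lower than in untreated parental cells (6.38 against 8.15, a difference of -1.76), as was CDKN1A (6.45 against 7.30). PLK2 (10.43 against 9.72) and GADD45A (8.28 against 7.59) were higher. So 2 of 9 members were higher and 2 lower by 1.5-fold, against 5.09% of all genes higher and 8.13% lower. The untreated parental array was taken on day 2 and the untreated Snai1ER array on day 4, so line and day cannot be told apart.

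The knockdown of ANGPTL4, a secreted protein of lipid metabolism and the subject of the study, was compared within each stimulus and day, over 6 pairs of arrays. A limma fit across these pairs put 1 of the 9 members and 2103 of the 11050 genes at an unadjusted p under 0.05. At an adjusted p under 0.05 it called none of the members and 97 genes, or 0.878%. It called 427 genes without the hypoxia pair of day 1 and 0 to 5 without any 1 of the other pairs, and no member in either case. The p-values measure the spread of the knockdown difference over pairs that differ in stimulus, day or line, since no condition was repeated. No label says whether the days of a stimulus came from separate cultures. GDF15 had the largest difference among the members, -0.90 ± 0.32 (SE, 6 pairs; 95% interval -1.62 to -0.18; adjusted p = 0.184), and was lower with knockdown in 5 of 6 pairs. It was -0.56 without the 4-OHT pair of day 4, -0.39 in the parental pairs alone, where BTG1 had -0.54, and -0.36 with array weights, where GADD45A had -0.66. BTG1 (-0.48 ± 0.21), GADD45B (-0.47 ± 0.22) and GADD45A (-0.45 ± 0.21) followed, with adjusted p of 0.267 to 0.295. GADD45B was lower in 5 of 6 pairs (-0.25 without the 4-OHT pair of day 4), BTG1 in 4 and GADD45A in 3. Their 95% intervals held 0, with upper ends of 0.0044 for BTG1, 0.03 for GADD45B and 0.03 for GADD45A. The intervals of CDKN1A (-0.59 to 0.31), CDKN1B (-0.51 to 0.34), MDM2 (-0.38 to 0.64), PLK2 (-0.28 to 0.54) and CDKN2B (-0.20 to 0.33) held 0 too.

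CKS1B, the cofactor that SKP2 needs to mark p27, was the only gene of the other lists of cell-cycle and p53 genes that this fit called. It was lower with knockdown in 6 of 6 pairs, by -0.77 ± 0.12 (adjusted p = 0.0381), but not called on the values as deposited (-0.66, adjusted p = 0.168). Its adjusted p was 0.0269 without the hypoxia pair of day 1 and 0.0706 to 0.128 without any 1 of the other pairs. The call was also lost when the gene was read from its brightest probe set only (-0.72, adjusted p = 0.0602). In the parental pairs alone the difference was -0.69 (adjusted p = 0.157), again not called. CKS1B stayed called with centred arrays (adjusted p = 0.0116) and with array weights (adjusted p = 0.00479). Those settings called 10.8% and 15.4% of all genes, in that order, against 0.878% in the main fit. CDKN1B, whose protein it helps to remove, was higher with knockdown in 3 pairs and lower in 3.

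The same pairs were also read within each stimulus, where the 2 time points stand in for replicates. The test that the knockdown difference varied with the stimulus called 0% of genes and none of the members (1028 genes and 2 members at an unadjusted p under 0.05), with unadjusted p of 0.0229 for GDF15 and 0.0481 for GADD45A. In hypoxia, 0 of 9 members met the 1.5-fold rule at both time points, against 0.67% of all genes higher and 3.76% lower. There limma called 0% of all genes, with 1359 genes and 0 members at an unadjusted p under 0.05. On day 1 of hypoxia, GDF15 read 7.85 with knockdown, against 9.06 without, MDM2 9.47 against 10.46, BTG1 9.13 against 9.99, and CDKN1A 7.43 against 8.14. On day 2 GDF15 read 8.81 with knockdown, against 9.07 without, and BTG1 10.32 against 10.07. The low values of day 1 come from the array that stood farthest from the others. GADD45A read 8.48 and 8.74 with knockdown in hypoxia, against 8.47 and 8.44 without, and was the only member still 1.5-fold above untreated cells at both time points with knockdown.

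Several genes of the other lists were lower with knockdown in hypoxia. PMAIP1 was lower by the 1.5-fold rule (-3.09 and -1.68), as were DDIT3 (-1.14 and -0.74), CCNE1 (-1.93 and -0.95), CDK2 (-0.94 and -1.57), CCND1 (-0.82 and -0.62) and MCM7 (-1.19 and -1.15). The epithelial keratin KRT8 moved with the same arrays (-2.38 and -0.78), as did KRT18 (-0.90 and -1.02), and their part in the members' values was not tested.

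On TGF-β, knockdown went with lower GADD45A and BTG1. By the 1.5-fold rule 2 of 9 members were lower and 0 higher, against 4.48% of all genes lower and 1.36% higher. As deposited 1 was lower, GADD45A, and 3 were higher, CDKN1A, CDKN1B and CDKN2B, against 0.751% of all genes lower and 27.6% higher. On the common scale limma called 0% of all genes, with 930 genes and 1 member at an unadjusted p under 0.05. GADD45A read 7.53 on both days with knockdown, against 8.59 and 8.53 without, and so sat beside its untreated level of 7.59. The TGF-β arrays without knockdown, with the low deposited medians, are on both sides: they serve in the stimulus and the knockdown comparison. The knockdown difference of GADD45A was -1.03 ± 0.27 (SE; limma, adjusted p = 0.444). BTG1 read 8.07 and 8.38 with knockdown, against 9.01 and 8.999 without (adjusted p = 0.61). GADD45B, just outside the rule, read 6.49 and 6.34, against 7.05 and 6.97, a difference that was 0.07 and 0.03 as deposited. GADD45A (-0.69 and -0.62) and BTG1 (-0.60 and -0.33) were lower as deposited too, BTG1 short of the rule on day 2. GDF15 read 7.04 and 6.52 with knockdown, against 6.79 and 6.86 without, and was below untreated cells with and without knockdown. As deposited, where each TGF-β pair also differed in array median, the limma fit called 1 member, CDKN2B (0.85 ± 0.21, adjusted p = 0.0338), among 1910 genes. The same difference was 0.15 ± 0.21 on the common scale. Among other p53 targets TIGAR (-1.08 and -1.68), DDB2 (-0.76 and -0.80) and RPS27L (-0.76 and -0.63) were lower with knockdown on TGF-β, of which TIGAR (-0.66 and -1.28) met the rule as deposited too.

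On 4-OHT, knockdown went with lower GDF15. It was the only one of 9 members past 1.5-fold at both time points, with 0 higher, against 7.48% of all genes lower and 2.19% higher. GDF15 read 6.64 on day 2 and 6.85 on day 4 with knockdown, against 7.86 and 9.46 without, and so lay within 0.47 log2 units of the untreated 6.38. Its difference was -1.91 ± 0.37 (SE; 95% interval -2.78 to -1.05; adjusted p = 0.0644), in a limma fit that called 86 genes, or 0.778%. That fit put 2 members and 2027 genes at an unadjusted p under 0.05. GADD45B followed with -0.90 ± 0.34 (adjusted p = 0.212). On day 4 GADD45B read 6.56 with knockdown, against 8.18 without, BTG1 8.20 against 9.24, GADD45A 8.19 against 9.17, and CDKN1A 6.98 against 7.87. These are the 5 members that were high on the 4-OHT array of day 4, and that array is on both sides: it is the stimulated array in one comparison and the array without knockdown in the other. MDM2 read 10.51 with knockdown on day 4, against 9.55 without, its highest level of all 14 arrays. SNAI1 read 8.74 with knockdown on day 4, against 9.55 without. Its part in the members' values was not tested.

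DDIT3 (-1.26 and -3.46), ATF3 (-0.89 and -2.38) and CKS1B (a mean of -0.92 over both days) were lower with knockdown on 4-OHT by the same rule. BTG3, a relative of BTG1, was also lower (-0.94 and -1.14), as was the p53 target TRIAP1 (-0.59 and -0.83), while CDK6 was higher (0.66 and 1.31). KRT19 was lower with knockdown on day 4 of 4-OHT (-1.72) more than on day 2 (-0.34), and its part in the members' values was not tested. Over all arrays of the series, EPCAM ran from 11.459 to 11.959 and CDH1 from 10.522 to 11.397. These ranges were narrower than that of KRT19, 9.144 to 11.935.

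**Figure D3:**
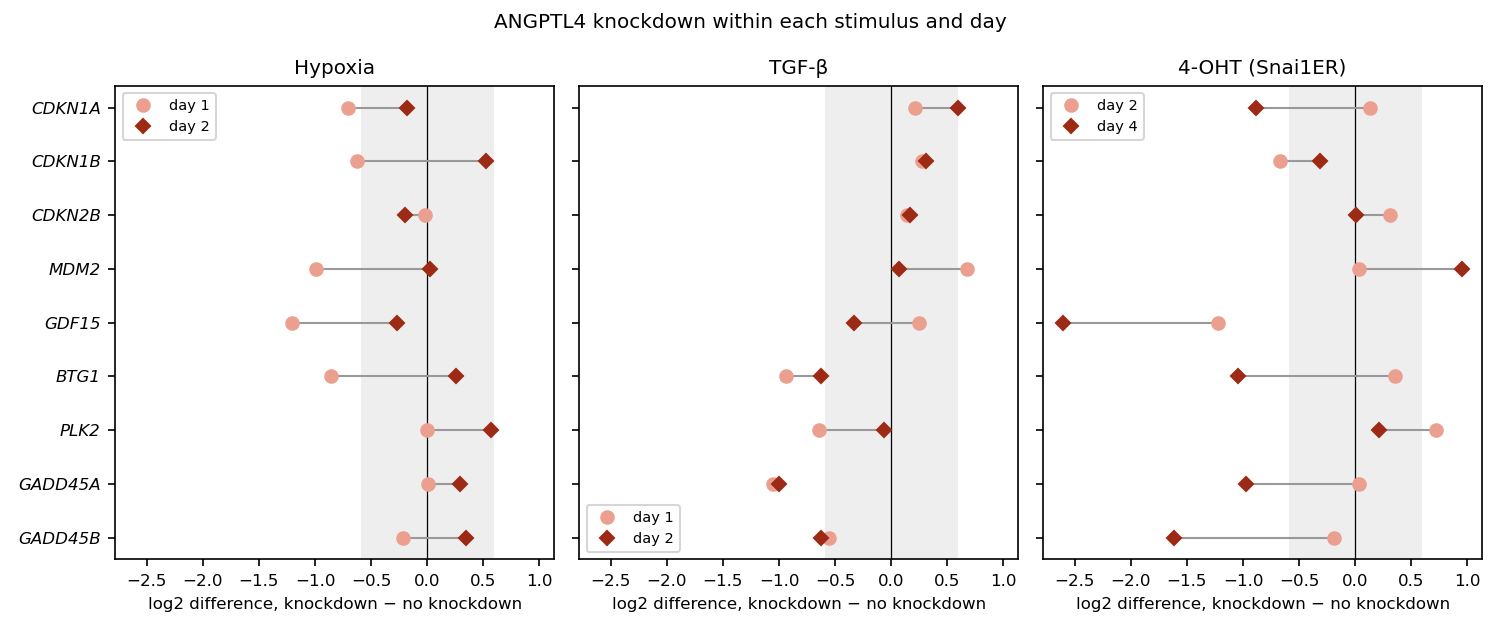
Log2 difference between the arrays with and without ANGPTL4 knockdown (horizontal axis) for 9 genes within each stimulus, at the earlier (circle) and later (diamond) time point, with differences under 1.5-fold shaded grey. GADD45A on TGF-β (-1.05 and -0.998) and GDF15 on 4-OHT (-1.22 and -2.60) lie outside the grey band at both times.

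Time within a stimulus was compared last, over 6 pairs of a later and an earlier array with the same stimulus and knockdown state. limma called 0% of genes and no member, and 161 genes and 1 member had an unadjusted p under 0.05. CDKN1A was higher at the later time in 5 of 6 pairs, by 0.40 ± 0.16 (SE; unadjusted p = 0.0355, adjusted p = 0.994), and 1.17 of log2 difference in 1 pair, 4-OHT without knockdown, was the largest part of it. Without knockdown, the day 2 and day 1 values of every member differed by 0.12 or less in hypoxia and by 0.19 or less on TGF-β, in the 2 closest pairs of arrays of the series (SD over genes of 0.235 and 0.152). With knockdown in hypoxia, day 2 was above day 1 for CDKN1B (1.25), BTG1 (1.20), MDM2 (1.02) and GDF15 (0.96).

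Over the 14 arrays, the members fell into loosely shared patterns, given as a description over arrays that share lines, stimuli and the common scale. GADD45A and GADD45B were closest (Pearson's r of 0.88, Spearman's rho of 0.91), followed by CDKN1A with BTG1 (0.77 and 0.71) and CDKN1A with GDF15 (0.77 and 0.70). The lowest r was that of GDF15 with PLK2, at -0.39. Of all genes kept, those with levels most like GDF15 were VEGFA (r of 0.95), HERPUD1 (0.95) and TCP11L2 (0.94), and those most like CDKN1A were MXD1 (0.92), SEC24D (0.92) and EIF2AK3 (0.89). MDM2 was closest to SH3KBP1 (0.91), NF1 (0.90) and HOOK3 (0.89). CDKN2B, which varied least among the members, had lower values with TRAM1 (0.79), ERLEC1 (0.77) and IDI2-AS1 (0.75).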

How the data were processed

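Gene expression was measured on 14 Affymetrix Human Gene 1.0 ST arrays of a gastric cancer line, 1 per condition. The authors deposited log2 intensities per probe set, made with RMA in Partek per the labels, whose versions are not given in the sources used here. The 33297 probe sets were quantile-normalized anew with limma 3.58.1 in R 4.3.3, since the 2 TGF-β arrays without knockdown had low deposited medians. Probe sets listed with 1 symbol (19460) were averaged by gene, and genes with a mean at or above the 40th percentile (log2 5.90) were kept. Probe-set symbols came from the platform annotation, with coordinates and promoters from RefSeq (GRCh38.p14). For lack of replicates, a stimulus was described by a size rule, 1.5-fold at both time points. Knockdown was fitted with limma over 6 pairs of arrays, matched by stimulus and day in the design and not by replicate number, with Benjamini-Hochberg adjustment over all 11050 genes. Single-stimulus terms used the 2 time points as replicates. The knockdown fit over 6 pairs was run on simulated data with independent normal noise, which held no outlying array. The number of arrays limits the precision. All members were named, with up to 3 genes of largest mean difference per list and comparison among those that passed, and the 3 genes nearest to each of 4 members. COL1A1, KRT8, KRT18, KRT19, EPCAM, CDH1, CDKN1C, CDKN2A and CDKN2D were named after their values were seen. Members, lists and comparisons were chosen with earlier results of these data known.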

Additional observations from a re-analysis of the deposited data

Results flagged for a closer look

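GDF15 had stimulus differences of opposite sign. It was 0.92 log2 units above untreated cells in hypoxia and -1.32 on TGF-β, means of 2 time points, so that the hypoxia difference exceeded the TGF-β difference by 2.24. Both were taken against the same untreated array. The difference of GDF15 on TGF-β lay below that on 4-OHT (-1.32 against 2.27, a difference of -3.60). Here the line, the untreated array and the days differed along with the stimulus. Untreated GDF15 already read 6.38 in Snai1ER cells, against 8.15 in parental cells. Both time points of each stimulus had the same sign. Neither difference was tested, since no condition was repeated.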

How the results depend on the processing

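Of the counts of members, 79 values under the alternatives stayed within 1.5 times that reported and 11 did not. Most of the 79 were 0 both as reported and under the alternative, where a ratio has no meaning. The changes of filter and of probe set could not alter a count by the size rule. The 79 are therefore no measure of stability. In hypoxia, 1 member was higher under a 2-fold rule and 1 with the knockdown arrays in place of those without. On TGF-β, members higher were 0 as deposited, 4 with arrays centred on their median, 0 under a 2-fold rule and 0 with the knockdown arrays. Members lower were 4 as deposited and 2 on day 1 alone. On 4-OHT, 5 members were higher on day 4 alone and 0 with the knockdown arrays. With array weights the knockdown fit called 1 member, GADD45A, among 15.4% of all genes. Among single members and CKS1B, 364 of 385 values kept their sign and 21 changed it, while 9, all of CKS1B, lost the call. Many of the 385 could not change sign. Each member had 1 probe set, so a change of filter or of probe set repeated its difference. Fits without the pair block or with a mean-variance trend also left the difference as it was. On TGF-β the mean difference turned sign for CDKN1B (-0.31) and GADD45B (-0.15) as deposited, and for MDM2 (0.09) and CDKN2B (0.13) with centred arrays. The other 17 were knockdown or time differences. CDKN1A was 0.058 as deposited, 0.17 with array weights and, over the leave-one-out fits, -0.286 to 0.0105. CDKN1B was 0.0016 as deposited, 0.18 with array weights, 0.12 in the parental pairs alone and -0.205 to 0.0335 with a pair left out. CDKN2B, MDM2 and PLK2 were -0.0512, -0.12 and -0.12 with centred arrays. MDM2 was -0.056 and PLK2 -0.0358 in the parental pairs alone, PLK2 was -0.0609 with array weights, and MDM2 was -0.0386 to 0.351 with a pair left out. The later minus earlier difference of CDKN2B was 0.0229 with array weights and -0.0848 to 0.0048 with a pair left out. The cause was not tested. Over all genes, the knockdown fit called 1698 with array weights, 1191 with centred arrays, 427 without the hypoxia day 1 pair, 14 as deposited and 0 to 5 without any other single pair. The interaction test called no member under any alternative run. No paired analysis by replicate number was possible because the labels carry none.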
